A study of Rattus norvegicus with 16 samples.

Results

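The proteasome genes of the rat frontal cortex are described here in 4 groups of animals. They are the 49 gene symbols, of 17001 in the table, that start with Psma, Psmb, Psmc, Psmd, Psme, Psmf or Psmg followed by a digit, each taken from its locus of highest mean FPKM over the 16 libraries. 48 of them are genes of the proteasome, its regulators and its assembly chaperones. The other one, Psmc3ip, is a recombination factor that shares only the start of its name and is counted with the 49 but described apart. Genes such as Adrm1 or Uchl5, whose proteins sit on the proteasome under other names, are outside the rule and form a separate list.

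The proteasome degrades proteins that carry ubiquitin chains. Its barrel-shaped core particle has outer alpha rings, which gate the entrance, and inner beta rings, of which Psmb6, Psmb7 and Psmb5 encode the proteolytic subunits (caspase-like, trypsin-like and chymotrypsin-like). Interferon replaces these with Psmb9, Psmb10 and Psmb8, the immunoproteasome subunits. A regulatory particle caps the core: its base holds the ATPases Psmc1 to Psmc6, which unfold substrates, and the scaffold subunits Psmd1 and Psmd2, and its lid holds Psmd14, which removes ubiquitin. In neurons the proteasome turns over synaptic proteins.

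All rats were male Sprague-Dawley animals that were 11 weeks old at the start and were fed for 7 weeks. The HF_5AzaD group ate a high fat diet and was injected for 10 days into the peritoneum with 5-AzaD in PBS. 5-AzaD stands for 5-aza-2′-deoxycytidine, a nucleoside that blocks DNA methyltransferases. Rats in HF_PBS had the same diet and 10 days of PBS vehicle by the same route. The HF group ate the high fat diet and was not injected. The chow group ate chow and was not injected. The high fat diet is thus shared by 3 groups, and no group received injections on chow. Each group has 4 libraries of poly-A RNA, and values are FPKM (mapped fragments per kilobase of a transcript, relative to the library total), listed below in the order of the library numbers: 3, 5, 6 and 7 for HF_5AzaD, 1 to 4 for HF_PBS, 5 to 8 for HF and 1 to 4 for chow. The labels do not state whether each library is a different animal. The p-values below therefore rest on the spread between libraries, and that spread may be technical. Injection cannot be told apart from any library or sequencing batch that went with it.

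Absolute depth is unknown. The smallest steps between low FPKM values put relative depth at 34.6 to 44.5% in HF_5AzaD, 32.6 to 42.7% in HF_PBS, 30.1 to 36.4% in HF and 38.7 to 100% in chow, with chow 2 as 100%. The tissue label was checked by summed FPKM of marker genes. Markers of cortical excitatory neurons summed to 1324 to 1719 FPKM in HF_5AzaD, 551 to 1525 in HF_PBS, 1547 to 3142 in HF and 2248 to 2428 in chow. The striatal markers, of a region beneath the cortex, stood apart in 4 libraries: they summed to 753, 811 and 1032 in HF_PBS 2, 3 and 4 and to 1375 in HF 8, against 219 to 401 in the other 12 libraries. Oligodendrocyte markers were at 12610 and 13640 in HF_PBS 3 and 4 and at 2324 to 7155 in the other libraries. Microglial markers summed to 197 to 361 in HF_5AzaD, 173 to 394 in HF_PBS, 191 to 249 in HF and 166 to 183 in chow. All 10 striatal, 10 oligodendrocyte and 12 microglial genes had values above 0 in some library, while Otx2 of the choroid plexus was listed at 0 in every library. In these bulk samples, fewer cells of a type and less RNA per cell cannot be told apart.

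Of the 49 members, 47 had a mean of at least 1 FPKM over the 16 libraries and were tested. The 2 below that mean were Psma8, the alpha subunit of male germ cells, at 0 to 0.185 FPKM, and Psmb11, the beta subunit of the thymus, at 0.268 to 0.873 FPKM. FPKM is a level per length of transcript, so genes are set side by side here, with a limit. The levels of genes with like-named copies, such as Psmb6, and of genes in merged loci are uncertain. In chow cortex the 6 ATPases ran from 31.1 FPKM (Psmc6) to 153 FPKM (Psmc5), with a median of 95.7, and the 8 lid subunits from 43.0 FPKM (Psmd14) to 79.2 FPKM (Psmd7). The 7 standard beta subunits had a median of 108 FPKM and a maximum of 150.1 FPKM in Psmb1, but Psmb6 stood at 4.51 FPKM, the lowest of them. The inducible beta subunits were low except Psmb10: chow means were 1.36 FPKM for Psmb8, 2.36 FPKM for Psmb9 and 18.9 FPKM for Psmb10. Activators and the inhibitor ranged from 0.756 FPKM (Psme2) to 26.1 FPKM (Psme3). The spread between libraries of a group was moderate, with median coefficients of variation over the members of 12.1% in HF_5AzaD, 13.8% in HF_PBS, 8.95% in HF and 7.19% in chow.

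The injected groups stood above HF for most members (the plot of differences from HF). Each member was tested with limma on log2(FPKM + 0.5), with p-values adjusted by Benjamini-Hochberg over all 14824 loci tested, and counts as called at an adjusted p under 0.05. Fold changes on this scale understate those of low genes. In HF_PBS against HF, 16 members rose and 1 fell, where 10.7% of all loci rose and 13.2% fell. The median log2 difference over the 47 members was 0.31 and that over all loci 0.01, and 44 of the 47 lay above 0, against 51.4% of all loci. In 17 members the HF_PBS libraries all lay above the HF libraries, as in 9.28% of all loci. In HF_5AzaD against HF, 10 members rose and 1 fell, where 6.61% of all loci rose and 7.64% fell, with a median of 0.27 against 0.02 over all loci. Of the 47 members 46 lay above 0, against 51.8% of all loci, and 15 lay above HF in every library and 1 below it, as did 8.97% and 8.78% of all loci. Both comparisons use the same HF libraries.

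**Figure D1:**
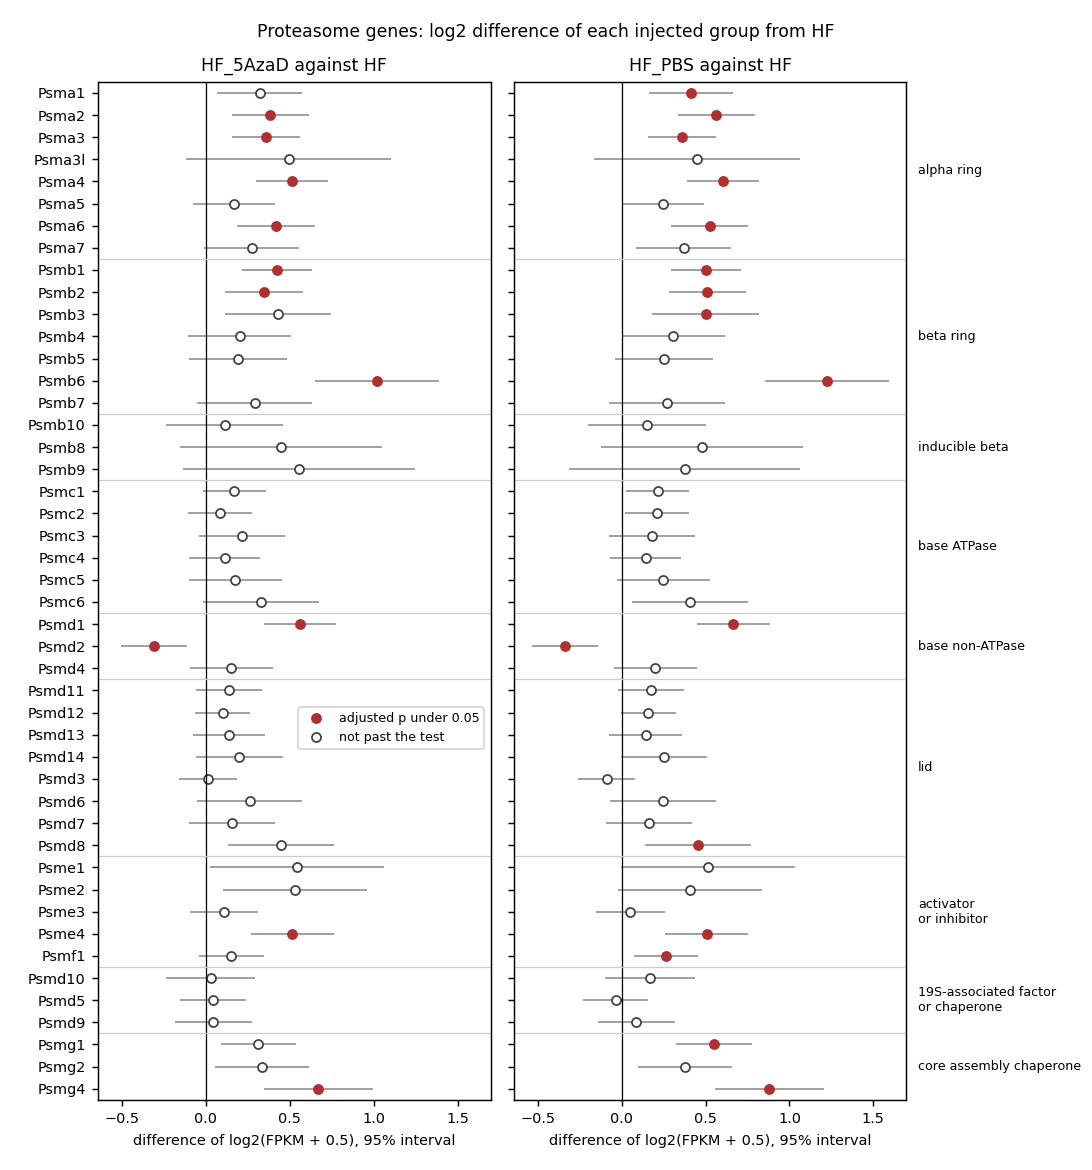
Difference of log2(FPKM + 0.5) for 46 proteasome genes, HF_5AzaD minus HF on the left and HF_PBS minus HF on the right. Psme2, which reached the minimum mean of 1 FPKM only through the injected groups, is among them. Points are fitted differences, lines 95% intervals, filled points are genes past the test, and rows are grouped by structural class. Psmb6 lies farthest to the right in both panels, at 1.02 and 1.22, and Psmd2 is the 1 filled point left of 0 in each.

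In HF_PBS against HF, the calls fell mainly in the core particle: 5 of 8 alpha ring genes and 4 of 7 standard beta genes rose, as did 2 of 3 core assembly chaperones. None of the 6 base ATPases passed the test, with all 6 differences above 0 (0.14 to 0.41). In the lid 1 of 8 rose, among the activators and the inhibitor 2 of 5, and among the inducible beta subunits 0 of 3. Whether the classes differ from each other was not tested. Here and below, counts from refits stand without the number of all loci called unless it is given. Such counts cannot tell a change among the members from a change over the whole table. The count was 10 without library HF_PBS 4 or without HF 6, 10 when only the HF_PBS and HF libraries were fitted, and 0 without HF_PBS 3, HF_PBS 4 and HF 8 together. That last fit leaves 2 HF_PBS libraries and calls 7 of all loci, and the members' median stayed at 0.30 in it. It keeps HF_PBS 2, whose striatal markers summed to 753 FPKM.

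In HF_5AzaD against HF, 4 of 8 alpha ring genes, 3 of 7 standard beta genes, 1 of 3 core assembly chaperones and 1 of 5 activators and inhibitors rose, and no ATPase or lid gene did. The count of 11 was 3 without HF_5AzaD 7 or without HF 6, 7 without HF_5AzaD 3, and 0 when only the HF_5AzaD and HF libraries were fitted, where 27 of all loci passed. Psma4, Psmb6 and Psmd1 were the 3 members called whichever single library was left out.

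The alpha ring closes the core and held 5 of the called genes. Psma4 had 97.7, 81.2, 75.5 and 90.0 FPKM in the HF_5AzaD libraries and 101, 85.6, 77.4 and 103 FPKM in the HF_PBS libraries. It had 63.3, 59.1, 58.8 and 58.2 FPKM in the HF libraries and 65.0, 67.3, 66.2 and 61.1 FPKM in the chow libraries. All 8 injected libraries lay above all 8 uninjected ones, and the log2 difference was 0.60 (SE 0.10, adjusted p = 0.00277) in HF_PBS against HF and 0.51 (SE 0.10, adjusted p = 0.010) in HF_5AzaD against HF. Psma2 had 85.6, 76.7, 68.8 and 91.0 FPKM in the HF_5AzaD libraries and 86.8, 82.6, 87.8 and 108 FPKM in the HF_PBS libraries. It had 64.5, 55.4, 59.7 and 65.9 FPKM in the HF libraries and 67.6, 69.6, 66.1 and 57.7 FPKM in the chow libraries. HF_5AzaD 6 was the lowest of the injected libraries for Psma2 and lay below chow 2, while every injected library lay above every HF library, with differences of 0.56 (SE 0.108, adjusted p = 0.00409) for HF_PBS and 0.38 (SE 0.108, adjusted p = 0.0314) for HF_5AzaD. Psma6 had 46.6, 43.2, 39.6 and 55.9 FPKM in the HF_5AzaD libraries and 51.9, 41.4, 53.3 and 52.6 FPKM in the HF_PBS libraries. It had 32.0, 32.5, 36.6 and 36.3 FPKM in the HF libraries and 40.0, 38.3, 38.3 and 35.5 FPKM in the chow libraries. Again both injected groups lay above HF without overlap, and HF_5AzaD 6 lay below chow 1. The differences from HF were 0.52 (SE 0.108, adjusted p = 0.00534) in HF_PBS and 0.42 (SE 0.108, adjusted p = 0.0239) in HF_5AzaD. Of the other alpha ring genes, Psma1 and Psma3 rose in HF_PBS by 0.41 and 0.36, and Psma3 rose in HF_5AzaD by 0.36. The call of Psma1 was lost without HF_PBS 1, HF_PBS 4 or HF 6, and that of Psma3 in HF_PBS without HF_PBS 4 or HF 6.

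In the standard beta rings, the caspase-like subunit gene Psmb6 moved most of all members. Psmb6 had 9.54, 7.84, 6.30 and 12.5 FPKM in the HF_5AzaD libraries and 11.0, 7.98, 9.50 and 12.7 FPKM in the HF_PBS libraries. It had 4.26, 4.33, 4.22 and 3.52 FPKM in the HF libraries and 4.60, 4.79, 4.47 and 4.17 FPKM in the chow libraries. The lowest injected library, HF_5AzaD 6, was above the highest uninjected one, chow 2, and HF_PBS 4 and HF_5AzaD 7 were the highest. Psmb6 differed from HF by 1.22 (SE 0.172, adjusted p = 0.00212) in HF_PBS and by 1.02 (SE 0.172, adjusted p = 0.00689) in HF_5AzaD. RefSeq lists 2 pseudogenes and 1 further gene named after Psmb6, and no source used here says how reads shared with such copies were divided, so its level and its change are uncertain.

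Psmb1 and Psmb2 encode beta subunits without proteolytic activity and were at higher levels. Psmb1 had 195, 167, 170.1 and 206 FPKM in the HF_5AzaD libraries and 205, 172, 185 and 218 FPKM in the HF_PBS libraries. It had 144, 127, 139.9 and 138 FPKM in the HF libraries and 156, 155, 154 and 135 FPKM in the chow libraries. Every injected library was above every uninjected one, with differences from HF of 0.50 (SE 0.0974, adjusted p = 0.00428) in HF_PBS and 0.42 (SE 0.0974, adjusted p = 0.0167) in HF_5AzaD. Psmb2 had 91.6, 74.4, 72.6 and 92.5 FPKM in the HF_5AzaD libraries and 96.9, 87.9, 81.6 and 104 FPKM in the HF_PBS libraries. It had 68.8, 61.3, 60.9 and 67.7 FPKM in the HF libraries and 75.2, 70.5, 68.9 and 59.3 FPKM in the chow libraries. The injected groups lay above HF, and HF_5AzaD 5 and 6 lay below chow 1, with differences from HF of 0.51 (SE 0.108, adjusted p = 0.00609) in HF_PBS and 0.35 (SE 0.108, adjusted p = 0.0456) in HF_5AzaD. Psmb3, a further structural beta subunit, rose in HF_PBS by 0.50 and lost its call without HF_PBS 1, HF_PBS 4 or HF 6. RefSeq lists 10 like-named copies of it.

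The other proteolytic subunits did not pass the test. Psmb7 had 146, 101, 104 and 133 FPKM in the HF_5AzaD libraries and 139, 93.1, 107 and 139 FPKM in the HF_PBS libraries. It had 119.5, 96.4, 99.4 and 78.6 FPKM in the HF libraries and 120.4, 108, 103 and 101 FPKM in the chow libraries. HF_5AzaD 3 and 7 and HF_PBS 1 and 4 were high, the other 4 injected libraries lay among the uninjected ones, and the difference was 0.27 (SE 0.161, adjusted p = 0.232) in HF_PBS against HF. Psmb5 had 182, 129, 127 and 155 FPKM in the HF_5AzaD libraries and 178, 121, 144 and 175 FPKM in the HF_PBS libraries. It had 144, 122, 122 and 126 FPKM in the HF libraries and 148, 133, 134 and 127 FPKM in the chow libraries. The same 4 injected libraries were the highest, with overlap below them, and the difference was 0.25 (SE 0.137, adjusted p = 0.193) in HF_PBS against HF, with an interval of -0.04 to 0.54. The ratio of Psmb6 to Psmb7 was 0.0746 ± 0.0148 in HF_5AzaD, 0.0865 ± 0.00549 in HF_PBS, 0.0420 ± 0.00435 in HF and 0.0418 ± 0.00277 in chow (SD, n = 4), and the injected libraries did not overlap with the others. The ratio was chosen after the values were seen and carries no test.

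**Figure D2:**
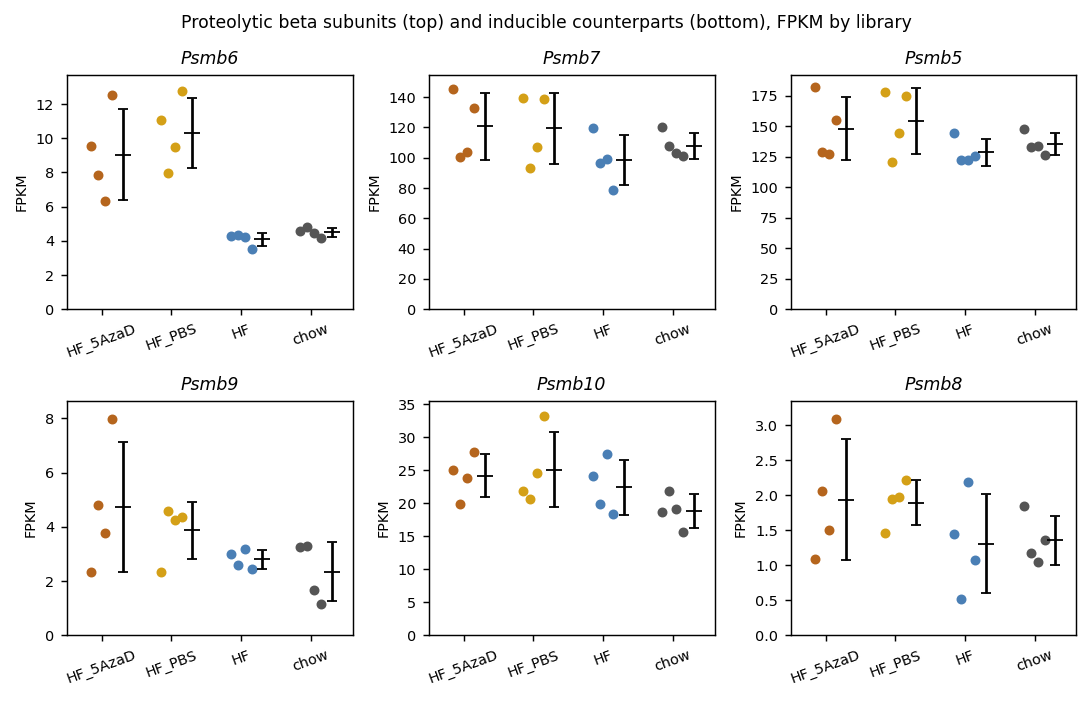
FPKM in each library (points) with the group mean and SD (bars, n = 4) for the proteolytic subunit genes Psmb6, Psmb7 and Psmb5 (top) and their inducible counterparts Psmb9, Psmb10 and Psmb8 (bottom); each axis starts at 0. For Psmb6 the injected groups lie between 6.30 and 12.7 FPKM and the uninjected groups between 3.52 and 4.79, and in the other panels the groups overlap.

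Among the immunoproteasome subunits no call was made in any comparison. Psmb9 had 2.35, 4.80, 3.78 and 7.97 FPKM in the HF_5AzaD libraries and 2.32, 4.58, 4.26 and 4.36 FPKM in the HF_PBS libraries. It had 3.00, 2.60, 3.18 and 2.43 FPKM in the HF libraries and 3.27, 3.31, 1.69 and 1.16 FPKM in the chow libraries. HF_5AzaD 7 was the highest and chow 3 and 4 the lowest, and HF_5AzaD 3 and HF_PBS 1 lay within the range of the uninjected libraries. Its difference was 0.56 (SE 0.323, adjusted p = 0.249) in HF_5AzaD against HF and 0.85 (SE 0.323, adjusted p = 0.0802) in HF_5AzaD against chow. Psmb10 had 25.1, 19.9, 23.9 and 27.8 FPKM in the HF_5AzaD libraries and 21.8, 20.7, 24.6 and 33.3 FPKM in the HF_PBS libraries. It had 24.2, 19.8, 27.4 and 18.3 FPKM in the HF libraries and 18.8, 21.9, 19.2 and 15.6 FPKM in the chow libraries. HF_PBS 4 was the highest and chow 4 the lowest, with the groups overlapping, and the difference was 0.15 (SE 0.163, adjusted p = 0.524) in HF_PBS against HF. Psmb8 had 1.10, 2.06, 1.51 and 3.09 FPKM in the HF_5AzaD libraries and 1.46, 1.94, 1.97 and 2.22 FPKM in the HF_PBS libraries. It had 1.45, 0.527, 2.20 and 1.07 FPKM in the HF libraries and 1.84, 1.18, 1.05 and 1.36 FPKM in the chow libraries. These are values near the floor, HF 6 was the lowest, and all 4 groups overlapped. Of 20 interferon response genes tested outside the proteasome, 2 rose and 1 fell in HF_PBS against HF. This is no larger a share than over all loci (10.7% rose and 13.2% fell), and none was called in HF_5AzaD against HF. Against chow, 1 rose and 1 fell in each injected group. Over all loci 12.4% rose and 15.7% fell in HF_PBS against chow, and 7.18% and 9.11% in HF_5AzaD against chow. The list's medians against chow were 0.20 in HF_PBS and 0.31 in HF_5AzaD, with 13 and 15 of the 20 above 0, against 51.1% and 50.4% of all loci. Psmb8 to Psmb5, as a ratio, stayed between 0.00431 and 0.0199 over the 16 libraries.

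The base of the regulatory particle held the 2 members with opposite signs. Psmd1 and Psmd2 encode its large scaffold subunits. Psmd1 had 82.6, 64.0, 66.7 and 76.6 FPKM in the HF_5AzaD libraries and 81.9, 66.3, 76.8 and 86.6 FPKM in the HF_PBS libraries. It had 54.9, 45.0, 46.2 and 49.4 FPKM in the HF libraries and 53.1, 52.2, 51.8 and 49.5 FPKM in the chow libraries. No injected library reached down to the highest uninjected one, HF 5, and the difference from HF was 0.66 (SE 0.101, adjusted p = 0.00212) in HF_PBS and 0.56 (SE 0.101, adjusted p = 0.00784) in HF_5AzaD. Psmd2 had 66.3, 57.4, 59.7 and 55.7 FPKM in the HF_5AzaD libraries and 69.3, 58.0, 54.2 and 53.6 FPKM in the HF_PBS libraries. It had 74.1, 81.7, 67.2 and 73.6 FPKM in the HF libraries and 79.3, 74.7, 72.5 and 75.2 FPKM in the chow libraries. The HF_5AzaD libraries all lay below HF and chow, as did 3 of the HF_PBS libraries, while HF_PBS 1 lay above HF 7. Psmd2 fell by 0.34 in HF_PBS against HF (SE 0.0923, adjusted p = 0.0188) and by 0.31 in HF_5AzaD against HF (SE 0.0923, adjusted p = 0.0396). Its call in HF_PBS was lost without HF_PBS 4 or HF 6. Its call in HF_5AzaD was lost when libraries were scaled to the same median and without any 1 of 6 libraries (HF_5AzaD 5, 6 and 7, HF 5, 6 and 8), and its sign held throughout. The ratio of Psmd1 to Psmd2 was 1.22 ± 0.124 in HF_5AzaD (1.12 to 1.38), 1.34 ± 0.224 in HF_PBS (1.14 to 1.62), 0.663 ± 0.0802 in HF (0.551 to 0.741) and 0.685 ± 0.0261 in chow (0.658 to 0.714; SD, n = 4). The ratio was above 1 in all injected libraries and below 1 in all uninjected ones, a description chosen after the values were seen and given with no test. Psmd4, a ubiquitin receptor and the third base subunit outside the ATPases, was at 84.3 ± 11.8 FPKM in HF_PBS and 73.0 ± 6.22 FPKM in HF and was not called.

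**Figure D3:**
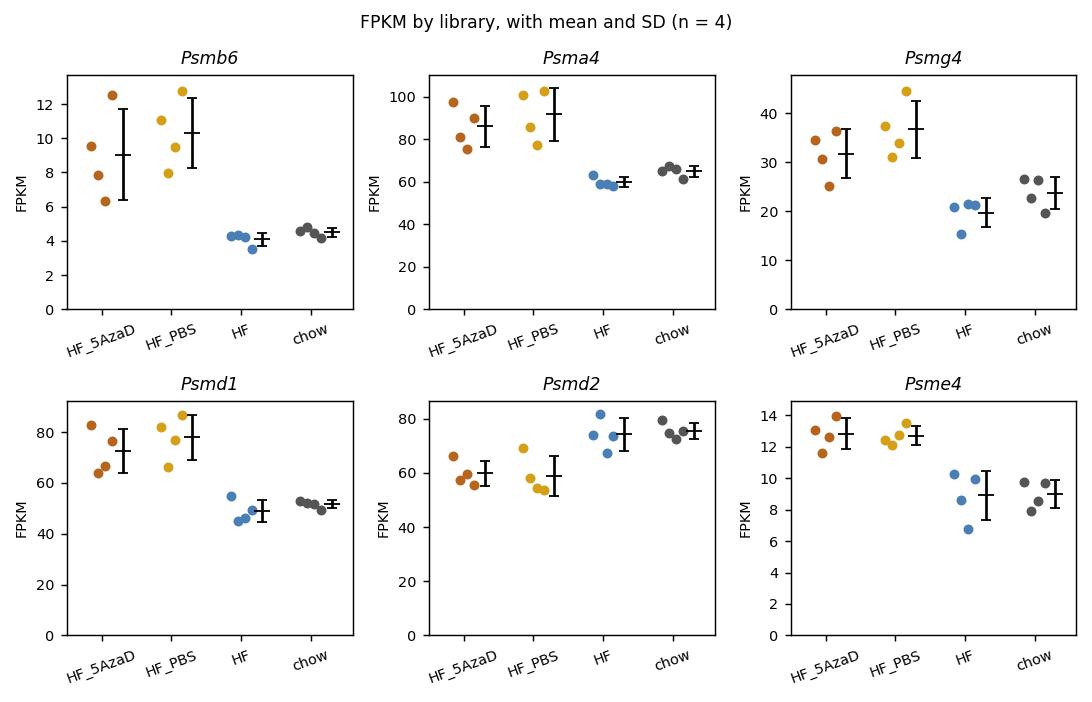
FPKM in each library (points) with the group mean and SD (bars, n = 4) for 6 members of different parts of the proteasome; each axis starts at 0. Psmb6, Psma4, Psmd1 and Psme4 are higher in all 8 injected libraries than in all 8 uninjected ones, Psmg4 is higher in 7 of them, and Psmd2 is lower in 7 of the 8 than in every HF and chow library.

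The promoters of the 5 proteasome genes with the largest called rises in HF_PBS against HF (Psmc3ip, which is no proteasome gene, left aside) and of Psmd2, the 1 that fell, are shown because these genes moved together or apart. They are the 200 bases before the transcription start, 5′ to 3′ on the gene's strand, from RefSeq (build GRCr8). Capitals mark the 2 motifs searched on both strands: TGACNNNGC, the core of the element bound by Nfe2l1 and Nfe2l2, transcription factors of proteasome and antioxidant genes, and CCAAT, the box bound by NF-Y.
Psmb6, chr10:55737688-55737887, plus strand: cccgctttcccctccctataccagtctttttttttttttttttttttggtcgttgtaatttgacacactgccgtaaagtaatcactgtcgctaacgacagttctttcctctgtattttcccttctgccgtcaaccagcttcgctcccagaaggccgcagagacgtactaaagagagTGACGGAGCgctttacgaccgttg
Psmg4, chr17:30923374-30923573, minus strand: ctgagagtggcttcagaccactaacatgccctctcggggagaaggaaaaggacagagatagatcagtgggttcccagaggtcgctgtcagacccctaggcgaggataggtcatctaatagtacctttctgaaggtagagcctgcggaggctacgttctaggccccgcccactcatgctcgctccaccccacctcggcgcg
Psmd1, chr9:94157771-94157970, plus strand: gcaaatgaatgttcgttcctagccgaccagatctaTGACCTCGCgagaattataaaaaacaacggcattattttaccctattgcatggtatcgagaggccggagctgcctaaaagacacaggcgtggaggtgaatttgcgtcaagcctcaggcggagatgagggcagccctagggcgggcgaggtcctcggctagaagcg
Psma4, chr8:64236320-64236519, plus strand: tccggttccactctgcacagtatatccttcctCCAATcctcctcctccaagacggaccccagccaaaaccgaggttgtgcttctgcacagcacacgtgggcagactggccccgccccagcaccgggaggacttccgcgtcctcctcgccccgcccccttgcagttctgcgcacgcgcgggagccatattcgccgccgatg
Psma2, chr17:55260442-55260641, minus strand: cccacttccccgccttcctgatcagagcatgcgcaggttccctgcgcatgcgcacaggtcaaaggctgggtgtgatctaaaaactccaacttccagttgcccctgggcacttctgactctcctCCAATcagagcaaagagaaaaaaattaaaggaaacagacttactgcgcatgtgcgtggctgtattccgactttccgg
Psmd2, chr11:93763389-93763588, minus strand: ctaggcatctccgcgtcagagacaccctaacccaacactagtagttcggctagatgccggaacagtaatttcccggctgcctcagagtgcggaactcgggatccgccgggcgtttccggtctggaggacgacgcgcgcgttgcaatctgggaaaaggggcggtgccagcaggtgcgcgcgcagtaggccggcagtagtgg
Psmb6 has TGACNNNGC starting 24 bases before its start, and Psmd1 has it 165 bases before. Psma4 and Psma2 each have 1 CCAAT, at 168 and 77 bases, while Psmg4 and Psmd2 have no match of either in these windows. Of the 42 proteasome genes with a promoter in the table, 7 (16.7%) hold TGACNNNGC in the 250 bases before the start, and so do 10.2% of all 27457 rat promoters of that length. CCAAT occurs in 19 of the 42 (45.2%) and in 34.3% of all promoters. By call, TGACNNNGC is in 5 of the 15 genes that rose in HF_PBS against HF and in 2 of the 25 that were not called, and CCAAT is in 8 of the 15 and 11 of the 25. The other TGACNNNGC promoters among the genes that rose are those of Psme4, Psmb2 and Psma3. In Psmb2 a match of each motif overlaps. A match of letters shows neither binding nor a cause.

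Of the 8 lid genes, Psmd8, which helps hold the lid to the base, was the 1 called. Psmd8 had 71.3, 53.5, 52.5 and 67.5 FPKM in the HF_5AzaD libraries and 69.1, 50.0, 52.1 and 76.5 FPKM in the HF_PBS libraries. It had 53.5, 39.1, 44.4 and 41.3 FPKM in the HF libraries and 48.8, 47.0, 47.4 and 42.2 FPKM in the chow libraries. HF 5 lay among the injected libraries, and HF_PBS 4 and HF_5AzaD 3 were the highest. Its difference was 0.46 (SE 0.148, adjusted p = 0.0377) in HF_PBS against HF, a call lost without HF_PBS 1, HF_PBS 4, HF 6, HF 7 or HF 8, and 0.45 (SE 0.148, adjusted p = 0.0547) in HF_5AzaD against HF. Psmd14, the deubiquitinase of the lid, had 52.6, 41.8, 42.2 and 47.6 FPKM in the HF_5AzaD libraries and 58.4, 40.2, 43.1 and 50.8 FPKM in the HF_PBS libraries. It had 43.6, 38.6, 38.0 and 39.6 FPKM in the HF libraries and 49.6, 43.6, 40.9 and 37.8 FPKM in the chow libraries. The groups overlapped, and the difference in HF_PBS against HF was 0.25 (SE 0.121, adjusted p = 0.137). Psmd11, which braces the lid against the core, had 62.8, 65.1, 57.5 and 60.3 FPKM in the HF_5AzaD libraries and 65.3, 61.0, 63.7 and 62.7 FPKM in the HF_PBS libraries. It had 59.8, 55.8, 50.3 and 57.8 FPKM in the HF libraries and 74.2, 57.6, 57.8 and 54.9 FPKM in the chow libraries. Chow 1 was the highest of all 16 libraries, HF_PBS lay above HF without overlap, and the difference there was 0.18 (SE 0.0921, adjusted p = 0.173). The Psmd11 locus is merged in the table with Zfp207 and Mir632, so its value is shared with them.

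The activators open the core gate in place of the regulatory particle. Psme4 had 13.1, 11.6, 12.6 and 14.0 FPKM in the HF_5AzaD libraries and 12.4, 12.1, 12.7 and 13.5 FPKM in the HF_PBS libraries. It had 10.2, 8.62, 6.79 and 9.93 FPKM in the HF libraries and 9.76, 7.93, 8.52 and 9.71 FPKM in the chow libraries. Psme4, a large single-chain activator found in nuclei, was above every uninjected library in all 8 injected ones, and HF 7 was the lowest of all; it differed from HF by 0.51 (SE 0.115, adjusted p = 0.00813) in HF_PBS and 0.52 (SE 0.115, adjusted p = 0.0154) in HF_5AzaD. Psme1 had 14.7, 22.8, 13.6 and 32.1 FPKM in the HF_5AzaD libraries and 14.0, 19.4, 24.5 and 20.4 FPKM in the HF_PBS libraries. It had 14.2, 9.48, 15.8 and 14.7 FPKM in the HF libraries and 12.8, 12.5, 10.0 and 10.8 FPKM in the chow libraries. Psme1, which forms an interferon-inducible ring with Psme2, was highest in HF_5AzaD 7 and spread widely within both injected groups; all 8 injected libraries lay above the chow libraries but not above HF. The difference from chow was 0.72 (SE 0.243, adjusted p = 0.0399) in HF_PBS and 0.75 (SE 0.243, adjusted p = 0.0492) in HF_5AzaD, and the difference from HF was 0.51 (adjusted p = 0.137) in HF_PBS and 0.54 (adjusted p = 0.137) in HF_5AzaD. The call in HF_PBS was lost without any 1 of 7 libraries and that in HF_5AzaD without any 1 of 6. Of the 12 microglial markers, 5 rose in HF_PBS against chow, 3 in HF_5AzaD against chow and 0 against HF, where 12.4% and 7.18% of all loci rose against chow. Against HF, 9 of the 12 lay above 0 and 3 below in HF_PBS (median 0.35) and likewise in HF_5AzaD (median 0.33). Among those below were Cx3cr1 and Itgam. The part of these markers in the values of Psme1 was not tested. Psme2 had 1.37, 1.37, 1.23 and 1.51 FPKM in the HF_5AzaD libraries and 0.772, 0.804, 1.73 and 1.85 FPKM in the HF_PBS libraries. It had 0.953, 0.593, 0.854 and 0.802 FPKM in the HF libraries and 0.809, 0.692, 0.866 and 0.656 FPKM in the chow libraries. All 4 HF_5AzaD libraries and HF_PBS 3 and 4 were above every uninjected library, and HF_PBS 1 and 2 were not. Psme2 reached the minimum mean of 1 FPKM only through the injected groups, so no p-value of it is given. It is still counted among the 47 tested members and in their medians, and its difference from HF is plotted. In the HF_5AzaD libraries it is among the 15 members that lay above HF and the 11 that lay above chow without overlap, counts that the minimum mean favours. Psme3 had 30.3, 29.0, 25.2 and 27.9 FPKM in the HF_5AzaD libraries and 27.7, 29.3, 22.4 and 28.8 FPKM in the HF_PBS libraries. It had 29.1, 25.0, 23.6 and 26.5 FPKM in the HF libraries and 28.1, 25.4, 25.1 and 25.7 FPKM in the chow libraries. Psme3, the nuclear relative of Psme1 and Psme2, overlapped in all groups (log2 difference 0.05, adjusted p = 0.728 in HF_PBS against HF).

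Psmf1 had 32.7, 29.2, 26.0 and 28.9 FPKM in the HF_5AzaD libraries and 34.9, 29.2, 28.3 and 34.0 FPKM in the HF_PBS libraries. It had 28.9, 25.0, 26.5 and 24.5 FPKM in the HF libraries and 24.4, 24.8, 25.5 and 25.4 FPKM in the chow libraries. Psmf1, which inhibits the core in the test tube, was highest in HF_PBS 1 and 4, with HF 5 among the injected libraries, and its difference was 0.26 (SE 0.0894, adjusted p = 0.0456) in HF_PBS against HF, a call lost without HF_PBS 1, HF_PBS 4, HF 6, HF 7 or HF 8. The core assembly chaperones help the alpha ring form. Psmg4 had 34.6, 30.8, 25.1 and 36.4 FPKM in the HF_5AzaD libraries and 37.3, 31.1, 33.9 and 44.6 FPKM in the HF_PBS libraries. It had 20.8, 15.3, 21.5 and 21.3 FPKM in the HF libraries and 26.5, 22.7, 26.3 and 19.7 FPKM in the chow libraries. HF_PBS 4 was the highest and HF 6 the lowest, and all injected libraries but HF_5AzaD 6 lay above every uninjected one. Psmg4 differed from HF by 0.88 (SE 0.151, adjusted p = 0.00293) in HF_PBS and by 0.67 (SE 0.151, adjusted p = 0.0158) in HF_5AzaD, and RefSeq lists 3 like-named copies of it. Psmg1 had 26.1, 21.9, 21.5 and 26.9 FPKM in the HF_5AzaD libraries and 29.0, 24.4, 31.6 and 28.8 FPKM in the HF_PBS libraries. It had 19.7, 16.8, 20.9 and 19.6 FPKM in the HF libraries and 20.2, 19.5, 20.3 and 16.7 FPKM in the chow libraries. The injected libraries all lay above the uninjected ones, and the difference from HF was 0.55 (SE 0.106, adjusted p = 0.00420) in HF_PBS and 0.31 (SE 0.106, adjusted p = 0.0597) in HF_5AzaD. Psmg2, the partner of Psmg1, was not called (log2 difference 0.38, adjusted p = 0.0503 in HF_PBS against HF), and Psmg3 was not analysed here. Of the 3 factors that assemble or bind the base (Psmd5, Psmd9 and Psmd10), none was called in any comparison. Psmc3ip, which is no proteasome gene, was at 6.10 ± 1.43 FPKM in HF_PBS and 3.54 ± 0.718 FPKM in HF (SD, n = 4; log2 difference 0.70, adjusted p = 0.0332).

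The injected groups were also set against chow, with the same injected libraries. In HF_PBS against chow, 16 members rose and 1 fell, where 12.4% of all loci rose and 15.7% fell. Markers of other cell types moved in the same comparison. Of 6 tested astrocyte genes Gfap, Aqp4 and Gja1 rose. Rbfox3, Nefm and Nefl fell among 10 neuron genes (median -0.54, 4 above 0). Camk2a fell among 5 genes of cortical excitatory neurons (median -0.97, 1 above 0). Cldn11 rose among 10 oligodendrocyte genes (median 0.74, all above 0), and Rgs9 and Tac1 among 10 striatal genes (median 1.59, 8 above 0). In HF_PBS against HF, Aqp4 and Cldn11 rose and Camk2a fell. There the oligodendrocyte median was 0.81, with all 10 above 0, and the striatal median 0.76, with 8 of 10 above 0. The astrocyte markers summed to 1969 to 2908 FPKM in HF_PBS, 1622 to 2641 FPKM in HF and 1775 to 2197 FPKM in chow, and the neuron markers to 2039 to 4977 FPKM in HF_PBS, 2911 to 4338 FPKM in HF and 4468 to 5355 FPKM in chow. Their part in the members' values was not tested. The median over the members was 0.24 and over all loci 0.01, and 41 of 47 lay above 0, against 51.1% of all loci. In 16 members all HF_PBS libraries lay above all chow libraries and in 1 below, as in 14.2% and 19.1% of all loci. By class, 5 of 8 alpha ring, 4 of 7 standard beta, 3 of 5 activator or inhibitor and 2 of 3 core chaperone genes rose, and no lid gene and no ATPase did. Among the called members the largest differences were those of Psmb6, 1.09 (SE 0.172, adjusted p = 0.00271), Psmc3ip, 0.79 (SE 0.220, adjusted p = 0.0180), and Psme1, given above, followed by Psmg4, 0.61 (SE 0.151, adjusted p = 0.0107), and Psmd1, 0.58 (SE 0.101, adjusted p = 0.00320). Psmd2 was again the member that fell, by 0.36 (SE 0.0923, adjusted p = 0.0120), here with all HF_PBS libraries below all chow libraries. The count was 10 without HF_PBS 4 and 0 without HF_PBS 3, HF_PBS 4 and HF 8, a fit that calls 3 of all loci and in which the members' median was 0.24. HF_PBS 2, with striatal markers at 753 FPKM, stays in that fit.

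In HF_5AzaD against chow, 6 members rose and 1 fell, where 7.18% of all loci rose and 9.11% fell. The median was 0.18 over the members and 0.00 over all loci, and 40 of 47 lay above 0, against 50.4% of all loci. In 11 members all HF_5AzaD libraries lay above all chow libraries and in 1 below, as in 12.3% and 14.8% of all loci. The 6 were Psmb6, 0.89 (SE 0.172, adjusted p = 0.0101), Psme1, 0.75, Psme4, 0.49 (SE 0.115, adjusted p = 0.0173), Psmd1, 0.48 (SE 0.101, adjusted p = 0.0129), Psma4, 0.40 (SE 0.10, adjusted p = 0.0218), and Psma3, 0.32 (SE 0.0954, adjusted p = 0.0359). Psmd2 fell by 0.34 (SE 0.0923, adjusted p = 0.0289). The count was 2 without HF_5AzaD 7 or chow 3, 3 without chow 2 or chow 4, and 13 without HF_5AzaD 6, and quantile normalization gave 14. Psmb6 and Psmd1 were called under every alternative tried in this comparison.

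The diet without injections, set against chow, gave no call among the members, and neither did the inhibitor set against its vehicle on the high fat diet. In HF against chow, 0 members passed the test with limma, as did 0.0% of all loci, and the smallest adjusted p was 0.723 among the members. At an unadjusted p under 0.05, 0 members and 6.88% of all loci passed. Of the 47 differences 9 lay above 0, against 48.2% of all loci, with a median of -0.08 against -0.01 over all loci, and that shift was negative under each of the scalings. Psmc4, a base ATPase, came closest, at 44.1 ± 3.51 FPKM in HF and 50.6 ± 2.86 FPKM in chow (SD, n = 4; log2 difference -0.20, adjusted p = 0.723). In 2 members, the ATPase Psmc2 and the lid gene Psmd3, all HF libraries lay below all chow libraries, which 3.97% of all loci showed. Psmc2 was at 85.4 ± 2.64 FPKM in HF and 92.0 ± 3.50 FPKM in chow.

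In HF_5AzaD against HF_PBS, the comparison of the DNA methyltransferase inhibitor with its vehicle, 0 members and 0.0% of all loci passed. At an unadjusted p under 0.05 there was 1 member, Psmg1, at 24.1 ± 2.78 FPKM in HF_5AzaD and 28.4 ± 3.00 FPKM in HF_PBS (log2 difference -0.24, adjusted p = 0.659), and 7.42% of all loci. The median over the members was -0.05 and over all loci 0.01, with 12 of 47 above 0, against 52.8% of all loci. Markers of cell types and regions moved in this comparison too, without a call. All 10 oligodendrocyte markers (median -0.96) and all 10 striatal markers (median -1.30) lay below 0. The 3 tested blood markers (median 1.10) and 7 of 10 neuron markers (median 0.25) lay above 0. The part of these markers in the members' values was not tested. For Psmb6 the difference was -0.20 (SE 0.172, adjusted p = 0.870) with a 95% interval of -0.57 to 0.17, and for Psmd1 it was -0.10 (SE 0.101, adjusted p = 0.894) with an interval of -0.32 to 0.11.

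Taking the injected libraries as 1 set and the uninjected as the other, 6 members were higher in all 8 injected libraries than in all 8 uninjected ones: Psma4, Psmb1, Psmb6, Psmd1, Psme4 and Psmg1. This was so for 2.92% of all loci. No member was lower in all 8, as 5.05% of all loci were. The libraries within an injected group were not alike (the heat map and the plot of library medians). The median over 46 members of the log2 value less each gene's mean was 0.24, -0.03, -0.05 and 0.18 in HF_5AzaD 3, 5, 6 and 7 and 0.30, 0.01, 0.06 and 0.32 in HF_PBS 1 to 4. It was -0.04, -0.24, -0.18 and -0.18 in HF 5 to 8 and 0.03, -0.06, -0.10 and -0.21 in chow 1 to 4. HF_5AzaD 3 and 7 and HF_PBS 1 and 4 had the highest medians, with 40 to 42 of the 46 genes above their own mean, and the remaining injected libraries had 14 to 30. In these 4 libraries the striatal markers summed to 261, 367, 252 and 1032 FPKM and the oligodendrocyte markers to 3355, 3998, 5580 and 13640 FPKM, in the same order. Microglial markers, at 197, 361, 173 and 323 FPKM there, were highest in HF_PBS 3. The part of these markers in the result was not tested. In HF_5AzaD against HF, 8 members were called without HF 8. In HF_5AzaD the striatal markers were at 219 to 367 FPKM, and all 5 cortical excitatory neuron markers had means below those of HF (median log2 difference -0.67 with all HF libraries). None of these 5 markers was called, and 6 of the 10 neuron markers lay above 0 (median 0.03). The part of these sets of markers in the members' calls was not tested.

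**Figure D4:**
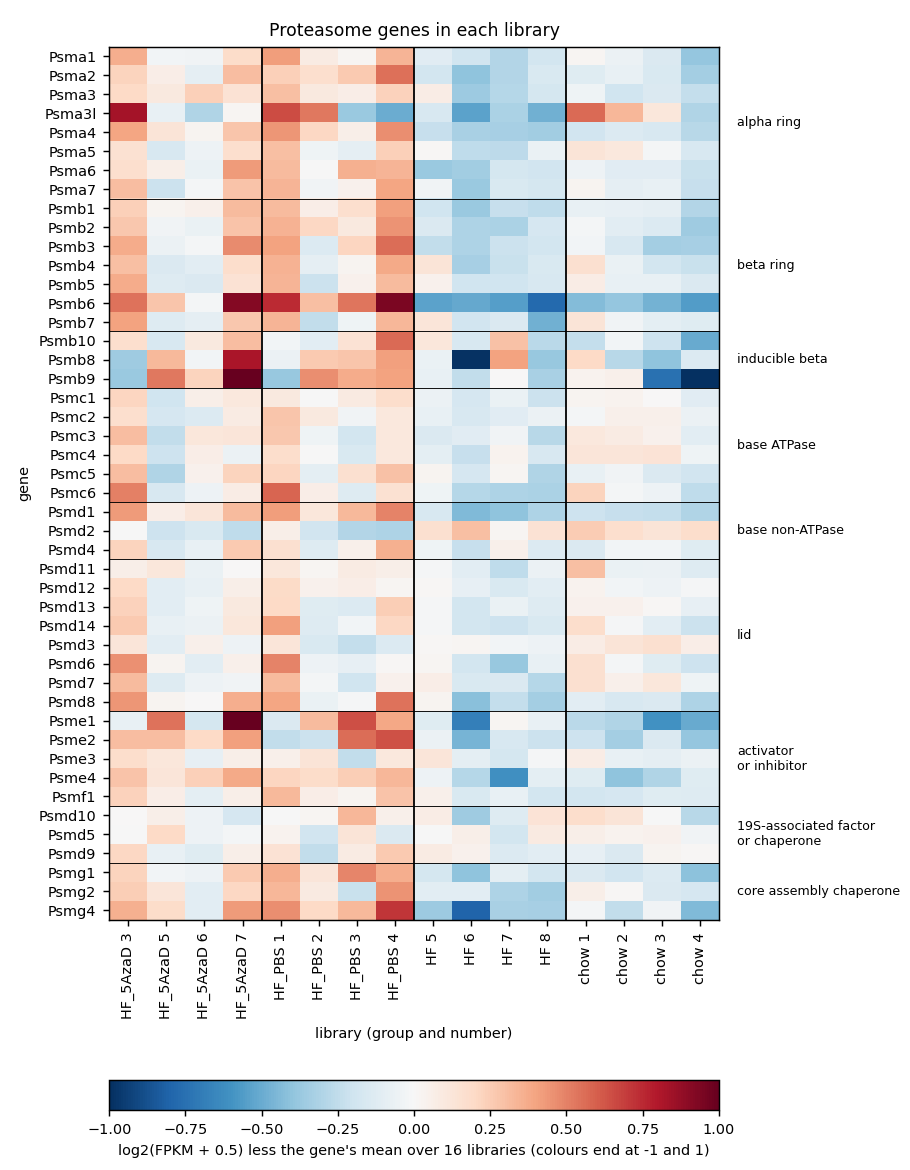
Log2(FPKM + 0.5) less the gene's mean over the 16 libraries for 46 proteasome genes (rows, by class) in every library (columns, by group). Red is above and blue below the mean, with colours ending at -1 and 1. HF_5AzaD 3 and 7 and HF_PBS 1 and 4 are red over most rows, Psmb6 is red or near white in all injected libraries and blue in all others, and Psmd2 is blue or near white in the injected libraries and red or near white in the others.

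**Figure D5:**
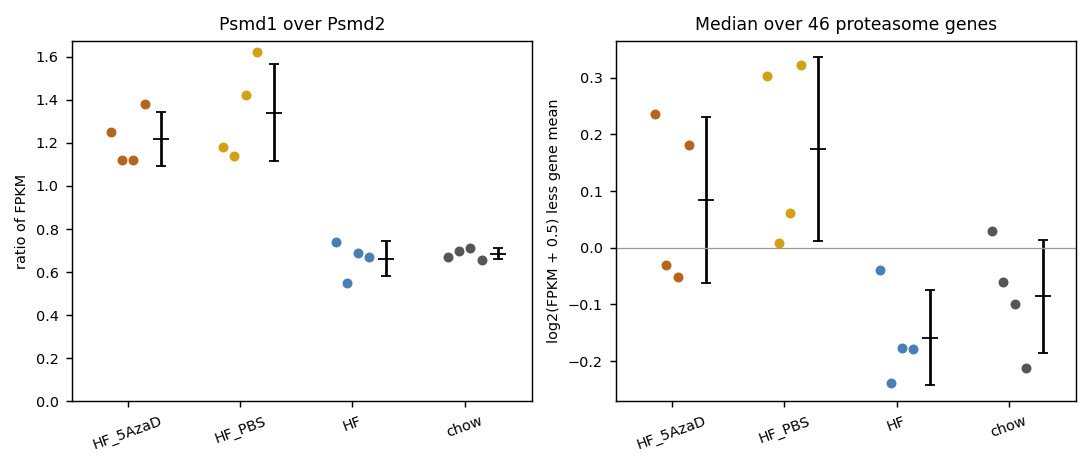
Left, ratio of Psmd1 to Psmd2 FPKM in each library; right, median over 46 proteasome genes of log2(FPKM + 0.5) less the gene's mean; bars are mean and SD (n = 4). The ratios are 1.12 to 1.62 in the injected libraries and 0.551 to 0.741 in the others, while the medians of the injected and uninjected libraries overlap.

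Other genes of the ubiquitin system were read from lists of known pathway members. Each list's counts stand beside the 10.7% of all loci that rose and the 13.2% that fell in HF_PBS against HF, and the 6.61% that rose and 7.64% that fell in HF_5AzaD against HF. A list with shares near these is not set apart by its counts. Of 7 tested genes for further proteasome subunits and bound factors, 3 rose in HF_PBS against HF and none fell, with a median log2 difference of 0.29 against 0.01 over all loci. Akirin2, which carries proteasomes into the nucleus, was at 59.0 ± 10.4 FPKM in HF_PBS and 40.4 ± 5.96 FPKM in HF (log2 difference 0.53, adjusted p = 0.0222). Uchl5, a deubiquitinase of the regulatory particle, was at 10.6 ± 2.30 FPKM in HF_PBS and 7.02 ± 0.523 FPKM in HF (log2 difference 0.54, adjusted p = 0.0229), and the bound thioredoxin-like protein gene Txnl1 rose by 0.29. In HF_5AzaD against HF, Akirin2 rose by 0.58 (SE 0.152, adjusted p = 0.0243) and Uchl5 by 0.51 (SE 0.155, adjusted p = 0.0404).

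Of 25 tested genes for ubiquitin-activating and conjugating enzymes, 7 rose and 2 fell in HF_PBS against HF (median 0.21), and 4 rose and 0 fell in HF_5AzaD against HF (median 0.18). Uba1, the main activating enzyme, was at 134 ± 11.2 FPKM in HF_PBS and 101 ± 7.75 FPKM in HF (log2 difference 0.40, adjusted p = 0.00970), and the conjugating enzyme genes Ube2d1 and Ube2a rose by 0.55 and 0.57 while Ube2z fell by 0.64. Of 21 deubiquitinases, 3 rose and 6 fell in HF_PBS against HF (median -0.11). Bap1, which acts on histone ubiquitin, was at 35.6 ± 4.17 FPKM in HF_PBS and 59.7 ± 6.47 FPKM in HF (log2 difference -0.74, adjusted p = 0.00212), Usp5, which takes apart free ubiquitin chains, was at 6.93 ± 2.04 FPKM in HF_PBS and 16.5 ± 3.33 FPKM in HF (log2 difference -1.22, adjusted p = 0.00379), and Usp8, a deubiquitinase of endosomes, was at 25.5 ± 0.679 FPKM in HF_PBS and 16.9 ± 1.40 FPKM in HF (log2 difference 0.59, adjusted p = 0.00226). Of 17 genes for Vcp, which pulls ubiquitinated proteins out of complexes, its partners and shuttle factors, 3 rose and 3 fell (median 0.00). Nploc4, a Vcp partner, was at 12.7 ± 0.725 FPKM in HF_PBS and 18.4 ± 1.65 FPKM in HF (log2 difference -0.52, adjusted p = 0.00319), and Nsfl1c, another cofactor of Vcp, rose by 0.37. Of 20 ubiquitin ligase genes, 2 rose and 3 fell (median -0.02), with Skp1, the adaptor of cullin ligases, at 441 ± 36.9 FPKM in HF_PBS and 304 ± 11.8 FPKM in HF (log2 difference 0.53, adjusted p = 0.00466). Of 14 MHC class I genes, Tapbp, a peptide-loading factor, was the 1 called (log2 difference -0.25, adjusted p = 0.0348 in HF_PBS against HF).

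Of 12 tested regulators of proteasome gene transcription, 1 rose and 3 fell in HF_PBS against HF (median 0.14). Nfe2l1, the transcription factor that raises proteasome genes when proteasome activity is short, fell to 71.7 ± 7.92 FPKM in HF_PBS, against 95.6 ± 10.8 FPKM in HF (log2 difference -0.41, adjusted p = 0.0120), and to 74.8 ± 7.53 FPKM in HF_5AzaD (log2 difference -0.35, adjusted p = 0.0362). Its relative Nfe2l2, of the antioxidant response, was at 12.2 ± 3.29 FPKM in HF_PBS and 8.09 ± 1.23 FPKM in HF (log2 difference 0.53, adjusted p = 0.0410). Mafg, a partner of both, was at 13.2 ± 0.726 FPKM in HF_PBS and 19.4 ± 2.68 FPKM in HF (log2 difference -0.53, adjusted p = 0.00421), and Syvn1, a ligase of the endoplasmic reticulum, at 14.1 ± 2.37 FPKM in HF_PBS and 20.9 ± 0.945 FPKM in HF (log2 difference -0.57, adjusted p = 0.00479). None of these lists had a call in HF against chow or in HF_5AzaD against HF_PBS, where 0.0% of all loci were called. As the comparisons share HF or HF_PBS libraries, their values are not independent of each other.

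19 of the 46 tested proteasome genes have pseudogenes or further genes named after them in RefSeq. Of the 16 called in HF_PBS against HF, Psmc3ip left aside, 8 have such copies and 8 have none, and of the 30 not called 11 have them and 19 have none. Psma4, Psmb1, Psmb2, Psme4, Psmg1 and Psmd2 are among the called genes without one, while Psmb6, Psmg4, Psma2, Psma6 and Psmd1 have 1 to 5. Psma3l was taken from a locus that the table also assigns to Psma3, and RefSeq lists the name as a synonym of Psma3, so both of these values are uncertain. Both are counted among the 8 alpha ring genes. Psma3l was called in no comparison. Its log2 differences were 0.45 in HF_PBS and 0.49 in HF_5AzaD against HF, and -0.10 and -0.06 against chow. Those of Psma3 against chow were 0.33 and 0.32. Psmb10 is merged in the table with Ctrl and Psme3 with Aoc2-ps1.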

How the data were processed

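The 16 libraries were grouped by their stated treatment. The letters HFD stand for diet without injection in the design text and for PBS animals in the titles; the treatment field decided. Library numbers come from the titles. FPKM values per merged locus, with a status for each value, were made by the authors and used as deposited. Cuffdiff, Cufflinks, TopHat, TopHat2, Bowtie and Bowtie2 appear in the submitters' processing notes with build rn5 and without versions or roles. The sources used here do not give the strand, so a gene and an overlapping or antisense partner cannot be told apart.

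From these values, log2(FPKM + 0.5) was fitted with limma 3.58.1 (R 4.3.3, mean-dependent prior) with 1 mean per group, 12 residual degrees of freedom and 6 contrasts. Tested were the 14824 loci with status OK in all libraries and a mean of at least 1 FPKM; 161 loci with another status, none of them a member, were left out. Unless called unadjusted, p-values are limma's, adjusted by Benjamini-Hochberg over these loci. The fit was tested on simulated data. Absolute depth is unknown, so no counting interval was computed, and relative depth limits the precision of low genes. Figures used matplotlib 3.10.9, and other steps pandas 2.3.3 and numpy 2.4.6 (Python 3.11.15). Promoters came from RefSeq GRCr8, matched by symbol.

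The members, lists and tests were chosen with earlier results of these data known. Values in every library are given for the proteolytic subunits and their inducible counterparts, Psme1 to Psme4, Psmf1, Psmd11 and Psmd14. They are also given for up to 3 called members per class with the largest difference and for any called member of opposite sign. Of the pathway lists, called genes of lowest adjusted p are named, up to 4 a list, and 1 such result is not reported here. Psmd4, Psmg2, Psmc2, Psmc4, Psmd3 and the ratios were chosen after their values were seen. Alternatives were other pseudocounts, filters, scalings and fits and leaving libraries out.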

Additional observations from a re-analysis of the deposited data

Results flagged for a closer look

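In each group of 4 libraries, the highest or lowest value was compared with the other 3. In 12 of 188 sets of a gene and a group its gap to the nearest other library was a larger share of the group's range than Dixon's 95% critical value for 4 values. Chance flags about 1 in 20 groups, which would be 9.4 of 188, so these flags carry little weight as a pattern. No explanation was tested.

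In the injected groups, HF_PBS 1 had 99.48 FPKM of the lid gene Psmd6, against 66.73 to 71.02 FPKM in the other HF_PBS libraries, and 2.322 FPKM of the inducible subunit gene Psmb9, against 4.259 to 4.576 FPKM. HF_PBS 2 had 41.37 FPKM of the alpha ring gene Psma6, against 51.91 to 53.34 FPKM. HF_PBS 3 had 29.8 FPKM of the assembly factor gene Psmd10, against 23.56 to 24.44 FPKM. HF_5AzaD 5 had 14.36 FPKM of Psmd5, another assembly factor gene, against 11.96 to 12.35 FPKM.

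In HF, library 5 had 30.53 FPKM of the ATPase gene Psmc6, against 25.18 to 25.7 FPKM, and 144.5 FPKM of the proteolytic subunit gene Psmb5, against 122.1 to 125.5 FPKM. HF 6 had 15.27 FPKM of the chaperone gene Psmg4, against 20.81 to 21.47 FPKM, and HF 8 had 3.521 FPKM of Psmb6, against 4.22 to 4.335 FPKM. In chow, library 4 had 134.5 FPKM of Psmb1, against 154.3 to 156.0 FPKM, and 46.34 FPKM of the ATPase gene Psmc4, against 51.86 to 52.34 FPKM. Chow 1 had 74.15 FPKM of the lid gene Psmd11, against 54.89 to 57.8 FPKM.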

How the results depend on the processing

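Counts of called members are given with the main count first. They stand without the number of all loci called in the same fits, so they do not set the members apart from other loci. HF_PBS against HF (17) gave 10 when only these groups were fitted, 0 without HF_PBS 3, HF_PBS 4 and HF 8 together, a fit with fewer samples, and 10 to 18 with 1 library left out. HF_5AzaD against HF (11) gave 0 when only these groups were fitted and 3 to 14 with 1 library left out. HF_PBS against chow (17) gave 0 without the same 3 libraries and 10 to 18 with 1 left out. HF_5AzaD against chow (7) gave 14 under quantile normalization and 2 to 13 with 1 left out. Beyond fewer samples, the cause was not tested. HF against chow and HF_5AzaD against HF_PBS gave 0 under every alternative run. None of the 52 single member results reversed, and 2 passed under every alternative. Depth relative to chow 2 was lowest in HF, which limits low genes such as Psmb8 and Psme2.

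Library numbers recur between groups but gave no sign of pairing: correlations of same-numbered libraries were -0.107 to 0.0641 for HF_5AzaD and HF, with 0 of 3 numbers as the best match, and -0.164 to 0.0236 for HF_PBS and chow, with 0 of 4. With the replicate number as a block, HF_5AzaD against HF gave 0 calls (0 over all loci) and HF_PBS against chow gave 5 (2331 over all loci).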
